A study of Canis lupus familiaris with 2 samples.

Results

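A 900 kb interval of dog chromosome 14, from 40000001 to 40900000 in the canFam3 build, was examined in windows of 1000 bp in 2 whole-genome bisulfite libraries. It was chosen by a window in it, the 1000 bp after position 40417000, for the size of its gain in methylation from one library to the other. A CpG site is a CpG dinucleotide with the calls of both strands summed, and the level of a window is the share of its calls that were methylated. Windows needed at least 5 CpG sites that had 5 or more calls in both libraries. That left 583 of the interval's 900 windows, out of 1497941 in the genome. Of the others, 310 had listed sites but fewer than 5 with enough calls, and 7 had no listed site.

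The libraries came from MDCK, a dog kidney line of epithelial cells. The control culture was untreated and labelled epithelial, and the other culture, the source of the treated library, received TGF-beta at 5 ng/ml and was labelled mesenchymal. Both were kept for 30 days, and each group has 1 library. TGF-beta is a signalling protein that can drive epithelial cells to a mesenchymal state. With no replicate, a difference between the libraries cannot be told apart from a difference between any 2 cultures, and tests here compare the libraries, not the conditions.

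DNA methylation in vertebrates lies mostly on CpG cytosines, and most of the genome's CpG sites are methylated. The exceptions are CpG islands, short CpG-dense stretches that are often promoters and are usually unmethylated, and some enhancers. The sequence beside an island, its shore, is where methylation passes from low to high. No annotation of the canFam3 build was used, so no gene is placed in the interval and no sequence is shown.

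The whole libraries held 656122583 calls in the control and 1019766599 in the treated library. In the interval a CpG site had a median of 23 calls in the control (quartiles 15 and 35) and 55 in the treated library (33 and 79). A window held from 39 to 3285 calls in the control and from 62 to 8707 in the treated library, with medians of 291 and 521. The treated library was thus the deeper by 2.18 times in the interval, against 1.65 times over all windows, and by 2.80 times in the interval's CpG-dense windows. With each site's calls drawn at random down to the smaller of its counts in the libraries, the largest gain was 66.9 points and 9 windows were called higher and 0 lower, where all calls gave 66.6 points and 13 and 6 windows. Intervals in parentheses are exact 95% binomial intervals, which cover counting error only, and calls at neighbouring sites come partly from the same reads. Over the genome's windows of 10% to 90%, the strands within a library differed by more than binomial counting gives, with variance factors of 2.99 in the control and 5.87 in the treated library.

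In the control, the interval was a highly methylated background with one cluster of unmethylated CpG-dense windows. Windows under 20% are called unmethylated here, windows of 80% or more methylated, and those between intermediate. Of the 583 windows, 365 (62.6%) were methylated, 173 intermediate and 45 (7.72%) unmethylated. Over the genome 36.4% were methylated and 7.64% unmethylated. The interval thus held a larger share of methylated windows than the genome and a similar share of unmethylated ones. The median over its windows was 86.3% for the control and 87.7% for the treated library, against 66.7% and 68.1% over all windows.

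CpG density sorted the windows of the control. Of 288 windows with 5 to 9 listed sites, none was unmethylated and 185 were methylated. Among 187 windows with 10 to 19 sites, 7 were unmethylated, and among 35 windows with 20 to 39 sites, 6 were. Windows with at least 40 listed sites, called CpG-dense below, numbered 73, or 12.5% of the interval against 5.86% of the genome's windows. Of these, 32 (43.8%) were unmethylated, 20 intermediate and 21 methylated. In the genome 15.1% of 87796 CpG-dense windows were unmethylated. The CpG-dense windows of the interval were therefore unmethylated more often than the genome's, as a description of 1 library, and yet 21 of them were methylated.

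The CpG-dense windows lay together. From 40261001 to 40429000, a stretch of 168 kb with limits set after the values were seen, there were 67 of the 73, of which 28 were unmethylated, 19 intermediate and 20 methylated in the control. Within it levels changed abruptly. Of 153 pairs of adjacent windows, 26 differed by at least 50 percentage points in the control and 22 in the treated library. The 100 kb from 40300001 to 40400000 were the densest, with 43 CpG-dense windows, 23 of them unmethylated. The other 6 CpG-dense windows lay far from the stretch. Among them the windows starting at 40092001, at 0.330% and 0.236% in the control and the treated library, and at 40780001, at 0.250% and 0.199%, were unmethylated in both.

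**Figure D1:**
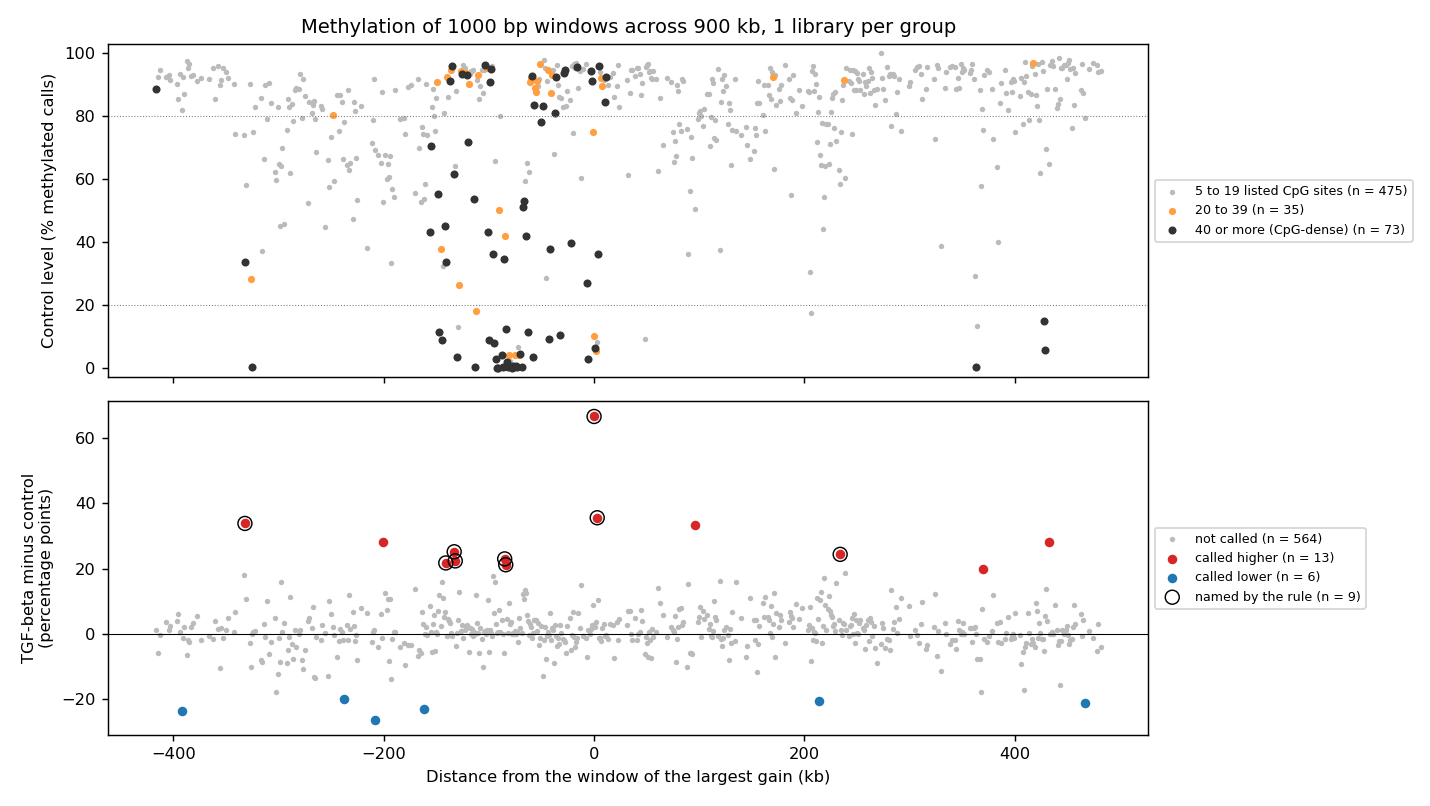
Upper panel: control level of each of the 583 windows (percent of calls methylated) against distance in kb from the window of the largest gain, coloured by the number of listed CpG sites, with dotted lines at 20% and 80%. Lower panel: TGF-beta minus control in percentage points, where 13 windows called higher are red, 6 called lower are blue and 9 named gains are ringed. CpG-dense windows cluster in the central stretch of 168 kb, mostly before the largest gain, and reach from near 0% to above 95%.

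Unmethylated windows of the control formed 20 runs of adjacent windows, of which 12 were single windows. The longest ran from 40333001 to 40349000, 16 windows with 909 CpG sites and 11 of them CpG-dense. It was at 2.45% (2.24 to 2.67) for the control and 5.35% (5.17 to 5.54) for the treated library. Of its windows, only the first, described below, was called different. The next in length held 4 windows, from position 40417000 to 40421000, and includes the window of the largest gain. It went from 6.94% to 21.0%. The run of 3 windows from 40324001 to 40327000 went from 0.506% to 1.38%. There were 5 runs of 2 windows. Those starting at 40287001, 40304001 and 40329001 went from 5.53% to 5.91%, from 4.66% to 5.49% and from 1.87% to 3.76%. That starting at 40780001 went from 2.17% to 0.559% and that starting at 40845001 from 10.2% to 10.5%. Of these 8 runs, only that of the largest gain was above 20% as a whole in the treated library. That level includes the window that chose the interval, at 76.8%. The other windows of that run were at 8.53%, 8.81% and 43.8% in the treated library.

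Methylated CpG-dense windows were mostly methylated in both libraries. The 21 of them ranged from 81.0% to 96.2% in the control (median 92.7%) and from 70.4% to 97.2% in the treated library (median 92.2%). The 5 most methylated started at 40313001, 40282001, 40422001, 40401001 and 40319001. They held between 94.9% and 96.2% in the control and between 94.5% and 97.2% in the treated library. One of the 21 differed by at least 10 points, the window from 40368001 to 40369000, at 83.3% against 70.4% by summed calls. By the mean of its site levels it was 7.54 points lower (-7.54). The window starting at 40422001 lies just past the run of the largest gain, so a window at 95.9% in the control stands within a few kb of windows under 10%.

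The difference that brought the interval to attention is given as a description, without a test. The window after position 40417000 has 22 CpG sites, from 40417147 to 40417897. It had 10.2% methylated calls (8.04 to 12.8, 664 calls) in the control and 76.8% (74.5 to 79.0, 1397 calls) in the treated library, a difference of 66.6 points. The mean of its site levels went from 8.33% to 76.5%. On the first position of the CpG pairs the difference was 67.4 points and on the second 68.0. Of all 1497941 windows, 16 had a larger gain, up to 88.8 points. Of the 689221 with at least 10 sites and 200 calls in each library, none did. The interval was chosen for the size of this gain, so its rank is no separate result.

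Every one of the 22 sites was higher in the treated library, by between 34.5 and 98.4 points. Control sites ranged from 0% to 26.7%, with 8 sites at 0%. Treated sites ranged from 40.4% to 98.4%, and 12 of them were at 80% or more, so the ranges do not overlap. At 40417356 the count was 0 of 24 methylated calls in the control and 63 of 64 in the treated library. Its neighbours were less complete: at 40417381 there were 0 of 22 methylated calls against 27 of 57, and at 40417394 there were 0 of 20 against 27 of 60. At 40417510 it was 0 of 28 against 45 of 46. Within about 200 bp, levels in the treated library thus fell from a high site to moderate ones and rose to a high site again. These 4 sites were at 0% in the control. With 20 to 28 calls, 3 methylated calls being the limit that a count of 0 allows, each could be as high as 10.7% to 15%.

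**Figure D2:**
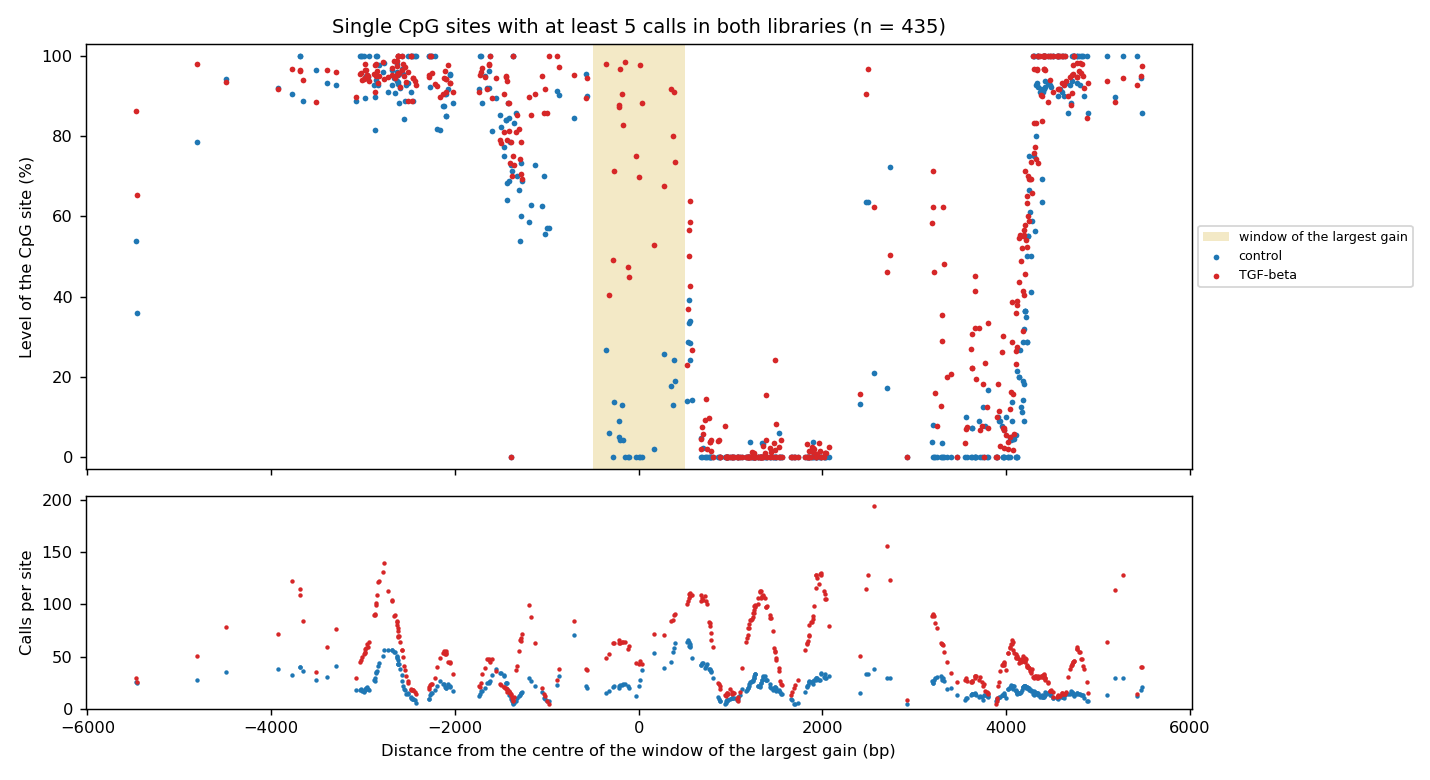
Level of each of 435 CpG sites (upper panel, percent) and calls per site (lower panel) against distance in bp from the centre of the window of the largest gain, which is shaded, for the control (blue) and the treated library (red). Control sites in the shaded window lie at or below 26.7% and treated sites at or above 40.4%, and a core to its right is near 0% in both.

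The gain lies on one edge of a longer stretch of low methylation. By a running median over 9 sites, a setting chosen after the values were seen, control methylation stayed under 50% from 40417147 to 40421728. This stretch of 4582 bp has 226 sites, at 7.70% in the control and 22.3% in the treated library. It divides into 3 parts, whose limits were also set after the values were seen. The first 939 bp, to 40418085, held 30 sites, all higher in the treated library, at 17.4% (15.3 to 19.7) against 64.8% (62.7 to 66.7). The middle 1734 bp, from 40418173 to 40419906, held 110 sites at 0.3995% (0.192 to 0.734, 2503 calls) against 1.94% (1.65 to 2.27, 7777 calls). Of its sites 92 had enough calls for the single-site test given below, and none of these was called different, while its highest site in the treated library was at 24.1%. Over the genome 1.24% of sites were called higher and 1.09% lower, so that few would be met in 92.

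The far side also differed. The last 1750 bp of the stretch, from 40419979 to 40421728, held 86 sites, of which 75 were higher in the treated library. Their level was 12.3% of 1557 calls in the control and 37.2% (35.8 to 38.7) of 4230 calls in the treated library, and the difference was 26.9 points on the first position of the CpG pairs and 20.5 on the second. Beyond the stretch, the 130 sites before it were at 89.0% and 93.1%, and the 79 sites after it at 88.5% and 90.6%. Single control sites within the last side were high, up to 72.4%, so the stretch was low by its running median and not at every site. The treated library was near 0% in the core and higher than the control on both sides, more so on the first.

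In bins of 200 bp the difference was not even. Within the window it was smallest from 40417601 to 40417800, from 11.96% to 60.1%, and largest from 40417401 to 40417600, where none of 99 calls was methylated in the control and 83.0% of 176 were in the treated library. The count of 0 covers 4 sites and allows a level of up to 3.03%. In the bin from 40418001 the level went from 21.9% to 34.2%, and from 40418201 from 0.242% to 5.597%. The fall from a large difference to a small one thus took place between neighbouring bins. Just before the window, the bins from 40416401 and 40416801 were at 61.2% and 92.9% in the control and at 91.4% and 92.0% in the treated library.

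The neighbouring windows followed these parts. The 4 tested windows from 40413001 to 40417000 were at 94.8%, 94.5%, 91.2% and 75.1% in the control, in order, and at 94.8%, 96.0%, 93.8% and 84.0% in the treated library. After the window of the largest gain, that from 40418001 to 40419000 went from 6.34% to 8.53% and that from 40419001 to 40420000 from 5.26% to 8.81%. The window from 40420001 to 40421000 went from 8.24% (5.90 to 11.1) to 43.8% (41.2 to 46.5), the second largest difference in the interval at 35.6 points. Then levels were 36.1% against 46.4% in the window starting at 40421001 and 95.9% against 94.8% in that starting at 40422001. Of these neighbours, only the window starting at 40420001 was called.

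The next question was whether the gain stands alone in the interval. A window was called when Fisher's exact test on its summed calls, adjusted by Benjamini and Hochberg over all 1497941 windows, gave under 0.05 and the levels differed by at least 20 points. In the interval 13 of 583 windows (2.23%) were called higher in the treated library, against 2.22% in the genome. Without the window of the largest gain it was 12 of 582 (2.06%). Lower windows numbered 6 (1.03%), against 1.43% in the genome. Over all windows, then, called windows were about as frequent in the interval as elsewhere. A window methylated in the control, however, can hardly gain 20 points. Such windows made up 62.6% of the interval's windows and 36.4% of the genome's. The 13 higher windows were all at 75.6% or less in the control. The similar shares therefore do not show that windows with room to gain were called equally often. In size the largest gain stood apart, though the interval was chosen for that size. Windows that were higher by 30 points or more numbered 4 of 583, the largest gain among them, against 7388 of 1497941 in the genome. After 66.6 points the next was 35.6.

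The called windows were compared by site number and strand. Of the 13 higher windows, 9 met the rule for naming, which asks for 10 sites, 100 calls in each library and 10 points on each strand, in one direction. None of the 6 lower windows did, but 5 of them had under 10 listed sites and so could not. On each strand, 10 of the 13 higher and 4 of the 6 lower windows differed by 10 points in one direction. Higher windows held from 5 to 73 listed sites and lower ones from 5 to 10. The lower windows differed by -20.004 to -26.2 points by summed calls, yet by -3.65 to 3.19 by the average of site levels, which gives each site the same weight. In the window starting at 40179001, 4 sites were higher and 4 lower. The 4 higher windows outside the rule, starting at 40216001, 40513001, 40787001 and 40850001, held 5 to 10 listed sites and differed by 1.27 to 14.3 points by the average of site levels.

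Of the 9 named gains 7 lay in the central stretch, and 5 of these were unmethylated in the control or within 2 windows of one that was. Of all 583 windows 110 were, though the 583 include windows methylated in the control, which can hardly gain enough to be called. The stretch, with limits set after the values were seen, holds most of the unmethylated CpG-dense windows, so the count of 5 is a description. The largest gain was thus not the only named gain in the stretch. Farthest from it was the CpG-dense window from 40085001 to 40086000, which lies 332 kb before it. It went from 33.8% (31.2 to 36.6, 1235 calls) to 67.7% (66.2 to 69.2, 3833 calls). Of its 65 sites 64 were higher, and the difference was 38.99 points on the first position of the CpG pairs and 30.5 on the second. This is the only called window outside the central stretch that is CpG-dense. The window starting at 40651001, 234 kb after the largest gain, had 10 sites and went from 58.6% (52.3 to 64.6) to 82.9% (79.9 to 85.7), but by 14.6 points by the average of site levels.

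Those of the central stretch began at different levels in the control. The CpG-dense window starting at 40276001 went from 33.8% (31.4 to 36.3) to 55.6% (53.8 to 57.3), with 41 of 46 sites higher. The adjacent windows starting at 40284001 and 40285001 went from 61.6% (59.4 to 63.8) to 86.8% (85.9 to 87.7) and from 64.3% (58.2 to 70.0) to 86.6% (83.7 to 89.3). They form a run of 2 called windows. In the first of them 60 of 69 sites were higher. In the control 30 of its sites were at 80% or more, and in the treated library 55 were.

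The second such run straddles the start of the longest unmethylated run. The window starting at 40332001 went from 41.9% (39.03 to 44.7) to 64.8% (63.0 to 66.6), with 34 of 36 sites higher. The next, the CpG-dense window starting at 40333001, went from 12.3% (10.9 to 13.8) to 33.5% (32.2 to 34.8). There 59 of 60 sites were higher, by 21.4 points on the first position of the CpG pairs and 21.0 on the second. Its sites under 20% numbered 48 in the control and 10 in the treated library. The following window, starting at 40334001, was at 1.89% and 6.48%, and the one after it at 0.178% and 0.439%. As at the largest gain, the difference was on the edge of the run and faded within 2 windows. The 2 called windows were near the threshold of 20 points. With calls drawn to the smaller count, those starting at 40332001 and 40333001 differed by 17.2 and 19.2 points, and neither was called. By the average of site levels they differed by 18.45 and 21.1 points.

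**Figure D3:**
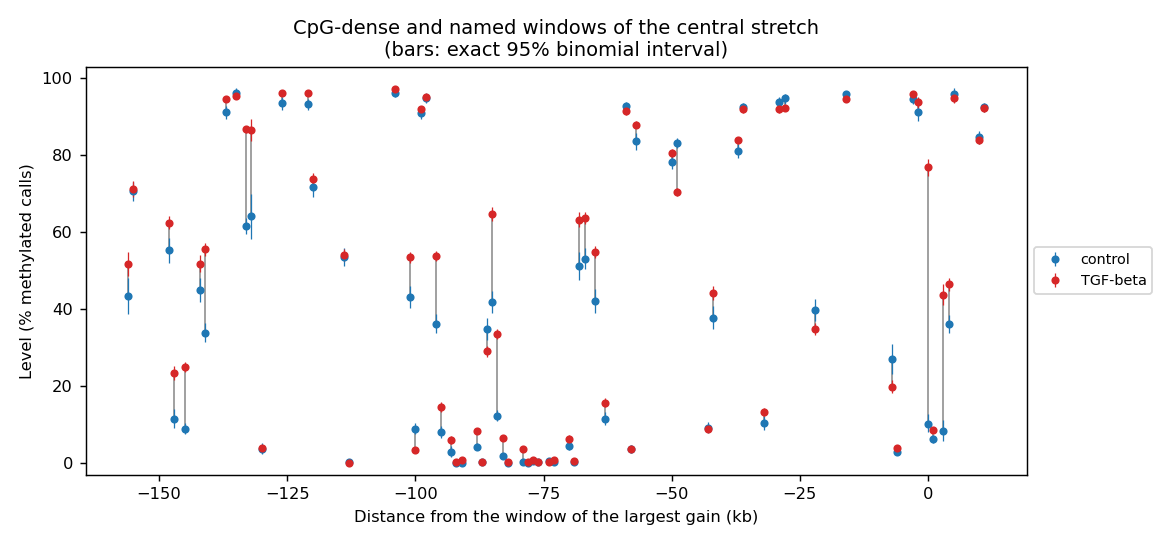
Level (percent of calls methylated) of the CpG-dense windows and the named gains of the central stretch in the control (blue) and the treated library (red), against distance in kb from the window of the largest gain, with bars for exact 95% binomial intervals and a grey line joining each pair. The lines are long at the named gains, such as 33.8% to 55.6% at 141 kb before the largest gain, and short where both libraries are near 0% or above 90%.

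Among CpG-dense windows, calls were more frequent than in the genome. Of the 73, 4 were called higher, where 0.415% of the genome's CpG-dense windows were, and none lower, where 0.133% were. Among the 52 under 80% in the control, 4 were higher against 0.717% in the genome. The 4 are the windows starting at 40085001, 40276001, 40284001 and 40333001. The window of the largest gain has 22 listed sites and is not among them. With so few calls in an interval chosen for a high difference in the same libraries, these shares are a description.

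The CpG-dense windows of intermediate level moved most as a class. Of the 20, which ranged from 26.9% to 78.1% in the control (median 43.2%), 17 were higher in the treated library (range 19.8% to 86.8%, median 54.4%). Their median difference was 7.82 points by summed calls and 10.0 by the average of site levels, against 1.38 points in the genome's 37367 windows of this class. At least 10 points were gained by 9 of them (45.0%), against 6.95% in the genome. Besides the 3 called ones, they include the windows starting at 40321001, from 36.2% to 53.9%, and at 40352001, from 42.1% to 54.8%. Not all shared the direction: the window starting at 40410001 went from 26.9% to 19.8% by summed calls, though its site levels were higher by 2.72 points on average.

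Intermediate levels were of more than one kind. In 9 of the 20 windows most sites were themselves intermediate in the control. In the window starting at 40350001, 51 of 52 sites were between 20% and 80%, and in that starting at 40395001 all but 7 of 58 were. In 5 others low and high sites each made up over 20%. Whether such a window spans a border was not examined. In the window starting at 40303001, 49 sites were under 20%, 29 at 80% or more and 4 between. A window level alone does not tell these apart.

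The unmethylated CpG-dense windows differed little. The 32 ranged from 0.0551% to 14.9% in the control (median 2.84%) and from 0.145% to 33.5% in the treated library (median 3.83%). The median difference was 0.469 points, and 25 of the 32 were positive. In the genome's 13283 windows of this class the median was 0.312 points and 65.3% were positive. The number under 1% was 14 in the control and 13 in the treated library. At least 10 points were gained by 3, those starting at 40270001, from 11.5% to 23.4%, at 40272001, from 8.90% to 24.9%, and at 40333001. These 3 had between 8.90% and 12.3% in the control, and they left the unmethylated class while the other 29 stayed in it.

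**Figure D4:**
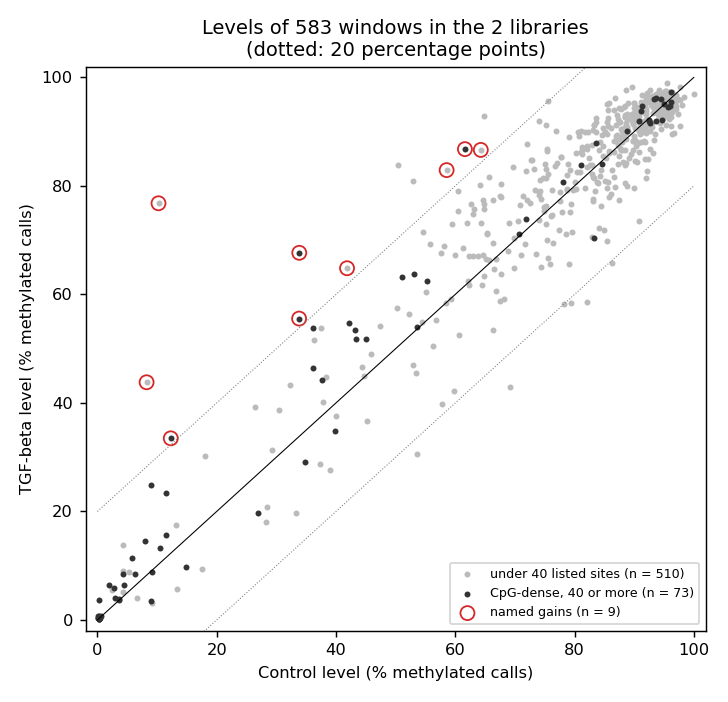
TGF-beta level against control level (percent of calls methylated) of the 583 windows, with CpG-dense windows in black, the 9 named gains ringed, a line of equality and dotted lines at 20 points. The CpG-dense windows sit close to equality near 0% and above 80% and mostly above it between 26.9% and 78.1%.

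Differences were read at the borders of unmethylated stretches with the strands kept apart, since a window picked for a low control level tends to look higher in any second library. Keeping them apart deals with counting error only. Both strands come from the same DNA of 1 control culture, so the rest of that tendency remains. The class of a window was set from the control level on the first position of the CpG pairs, and the difference was read on the second, an analysis added after the data were examined. Windows needed both neighbours tested. Inside unmethylated runs, 14 windows had a median difference of 0.690 points and none gained 10. In the genome 4.48% of such windows did. Of 17 windows at the inner edge, 5 (29.4%) gained at least 10 points. One of the 5 is the window that chose the interval, and without it 4 of 16 did, against 12.4% of such windows in the genome. Of 19 just outside, 5 (26.3%) did, against 14.8%, and 1 lost as much. Of 46 farther away, 5 (10.9%) did, against 7.41%. Of the 5 at the inner edge, those starting at 40316001 and 40354001 gained on the second position only, by 11.8 and 16.9 points. On the first position they differed by -2.20 and -1.18 points. With few windows in each class, and 0 of 14 close to the genome's share, these counts are a description.

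Of the 13 windows called higher, 8 lay within 5 windows of a window unmethylated in the control. Without the largest gain, which is itself unmethylated in the control, it was 7 of 12. Of the 6 called lower none did, and of all 583 windows 29.0% did. The median distance was 4 kb for the higher ones and 49.5 kb for the lower ones, against 18 kb over all 583 windows. Part of these contrasts is set by the rule for calling. A window unmethylated in the control cannot lose enough to be called lower. The higher windows starting at 40333001 and 40420001 are, like the largest gain, such windows. The 583 also include 365 windows methylated in the control, which can hardly gain enough to be called higher. The distances are therefore a description. Among the 160 windows of the central stretch 7 were called higher, or 6 of 159 (3.77%) without the largest gain, and none lower. The other 423 windows held 6 of each. Over the genome 2.22% were higher and 1.43% lower, so that few lower windows would be met in 160, and the limits of the stretch were set after the values were seen.

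The strands serve as an internal check, since reads of each strand are counted apart but come from the same DNA. Windows with the same sites covered on both strands numbered 284. In 5 of them (1.76%) both strands were higher by at least 20 points, against 0.668% of the genome's 625852 such windows. In 1 (0.352%) both were lower, against 0.360%. None differed by 20 points in opposite directions, and in the genome 227 did. At 10 points it was 15 higher (5.28%), 2 lower (0.704%) and none opposite, against 3.69%, 2.86% and 1.12% in the genome. The absence of opposite windows was thus near the genome's share. The 5 higher by 20 points are the windows starting at 40085001, 40321001, 40333001 and 40420001 and the window of the largest gain. Across these windows Pearson's r between the strands' differences was 0.642, or 0.551 without the largest gain. Windows are not independent replicates, and in the genome's windows r was 0.402.

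**Figure D5:**
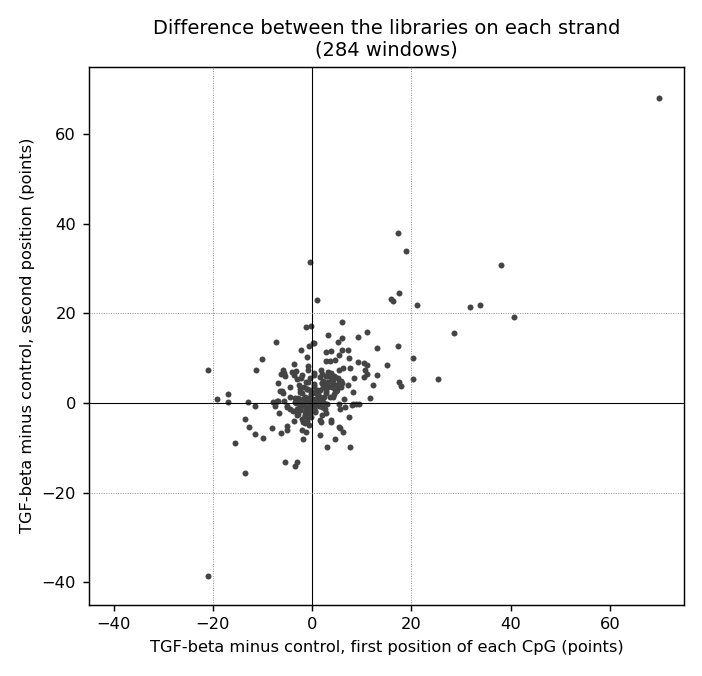
TGF-beta minus control in percentage points on the first position of the CpG pairs (horizontal) and on the second (vertical) for the 284 windows with the same sites on both strands, with dotted lines at 20 points. The largest gain is at the upper right, at 69.8 and 68.1 points over its 16 sites covered on both strands, and 1 window is at the lower left.

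Single CpG sites were tested in the same way, given 10 calls or more in each library and adjustment over all 19700914 such sites. Of 9535 in the interval, 228 (2.39%) were called higher, against 1.24% in the genome, and 23 (0.241%) lower, against 1.09%. Without the window of the largest gain, which holds 21 of them, the higher sites were 207 of 9513 (2.18%). Of the 228, 99 lay in the 9 named windows, which were picked for their gain in the same calls, and 11 windows held at least 5. The 23 lower sites lay in 23 windows, 1 in each. The most higher sites, 28 of 62, were in the window starting at 40284001. The windows starting at 40085001 and 40321001 had 18 each. The latter was not called as a window, since its difference was 17.6 points.

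Taken over all its windows, the interval differed little between the libraries. The median difference was 1.02 points (quartiles -1.70 and 4.34), against 0.443 over the genome and 0.745 over the rest of chromosome 14. In the 900 kb before it the median was -0.00226 points, with 7 of 754 windows called higher. In the 900 kb after it the median was 2.20 points, with 31 of 625 (4.96%) called higher. The interval itself lies between its flanks in both respects. Windows just inside the requirement of 5 sites numbered 77, with a median difference of 1.10 points, and the 78 with 4 sites just outside it had 0.108.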

How the data were processed

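Whole-genome bisulfite data of 2 MDCK cultures, 1 library each, were grouped by the labelled agent. The deposited values are counts: the authors' files give methylated and unmethylated calls for each listed CpG cytosine, strands on separate lines, with no header. Bowtie 0.12.8, Bismark and the canFam3 build are named per the submitters' processing notes, whereas SOAPaligner2 is named per the labels' protocols. How duplicates, base quality and read pairs that overlap were handled is not given in the sources used here. Duplicates, if kept, would make the intervals too narrow. The methylated column was told from the values: its share in mitochondrial DNA was 0.211% in the control and 0.329% in the treated library. In each file 1 line naming no chromosome was left out, with 12 and 6 calls.

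Adjacent cytosines were joined into 25888236 CpG sites, and fixed 1000 bp windows were formed from sites of 5 or more calls in both libraries. Two-sided Fisher's exact tests on summed calls were adjusted by Benjamini and Hochberg over all windows of the genome, and called at an adjusted p under 0.05 and 20 points. Single sites needed 10 calls. The window code was tested on simulated data. Named were the largest gain and the 5 windows on either side, and up to 10 called windows with at least 10 sites, 100 calls in each library and 10 points on each strand, in one direction. The longest unmethylated runs in the control, the 5 most methylated CpG-dense windows and runs of called windows were also named. Other windows in the text were chosen after their values were seen. The window that chose the interval and these rules were set with earlier results of these data known. Gene promoters were planned but are not analysed here. Python 3.11.15, numpy 2.4.6, scipy 1.17.1 and pandas 2.3.3 were used. The closing section gives the alternatives tried.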

Additional observations from a re-analysis of the deposited data

How the results depend on the processing

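No paired analysis was possible because each group has 1 library, and for the same reason no replicate could be left out. The 13 windows called higher became 4 at 30 points, 50 at 10 points and, by a rule added after the data were examined (20 points by the average of site levels and 10 on each strand), 6. Under the 10 other alternatives they numbered 9 to 15. The 6 windows called lower were less stable. They became 3 on the first and 3 on the second position of the CpG pairs, 1 with at least 10 sites, 18 at 10 points, and 0 with a score test allowing for overdispersion, with calls drawn to the smaller count, by the average of site levels, at 30 points and by the added rule. The cause was not tested. The difference of 66.6 points at the largest gain was 48.2 in its smallest and 83.0 in its largest bin of 200 bp. CpG-dense windows methylated in the control went from 21 to 44 where 20 listed sites sufficed, and unmethylated ones from 32 to between 27 and 38. At 40 points single sites called were 144 higher and 7 lower. The median difference kept its sign, from 0.539 to 1.08 points. Of 72 values of the 9 named gains under alternatives, none reversed and 9 fell below the threshold. Those 9 were in 6 windows, that at 40651001 among them, with 16.4 points where calls were drawn and 14.6 by the average of site levels.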
